A study of Mus musculus with 8 samples.

Results

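The microRNAs described here are 5 mature strands of the mouse miR-130, miR-148 and miR-152 group: mmu-miR-130a-3p, mmu-miR-130b-3p, mmu-miR-148a-3p, mmu-miR-148b-3p and mmu-miR-152-3p, named below without the prefix for mouse. They were chosen by name, and they are 5 of the 1881 mouse miRNAs on the array. Of the 5, 3 were measured well enough on these arrays to be tested (miR-130a-3p, miR-148a-3p and miR-152-3p), and miR-130b-3p and miR-148b-3p were close to background.

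The data are 8 one-colour miRNA arrays of mouse skin, 4 from a group called NcstnΔKC and 4 from a group called normal. All were male mice of the genotype Ncstn flx/flx; Krt14 CreER+/-, in which the Cre recombinase is driven by the promoter of keratin 14, a gene of basal keratinocytes, and acts only once tamoxifen is given. NcstnΔKC mice received tamoxifen by oral gavage at 20 mg/kg/day for 5 consecutive days from the age of 8 weeks and then every 10 days, and the controls were given corn oil in an equal volume. Skin, called lesions in the labels of both groups, was taken at 16 weeks. Ncstn encodes nicastrin, a subunit of γ-secretase, the protease that releases the intracellular part of Notch receptors. Loss of Ncstn and exposure to tamoxifen differ together between the groups and cannot be told apart. The deletion is directed to keratinocytes while whole skin was measured, and Ncstn mRNA is not on a miRNA array, so the deletion itself was not checked here. It is not stated that each sample is a different mouse, so the p-values measure only how far these samples spread, and that spread may be technical.

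A miRNA pairs with messenger RNAs mainly through its seed, bases 2 to 8 from its 5′ end, and lowers their stability and translation. Members of the miR-148 and miR-152 family are known for repressing the DNA methyltransferase DNMT1, and members of the miR-130 family for repressing PPARγ, a regulator of fat cell differentiation. The 5 mature sequences, as RefSeq gives them for GRCm38.p6, are shown because the seeds divide the group and the few other differing bases decide how well the probes can tell the members apart. Capitals mark the seed.
miR-130a-3p: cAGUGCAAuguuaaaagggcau
miR-130b-3p: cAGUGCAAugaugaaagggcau
miR-148a-3p: uCAGUGCAcuacagaacuuugu
miR-148b-3p: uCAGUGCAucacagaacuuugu
miR-152-3p: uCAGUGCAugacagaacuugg

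There are 2 seeds. AGUGCAA belongs to miR-130a-3p and miR-130b-3p, and 7 of the 1679 mature mouse miRNAs of the RefSeq table carry it. CAGUGCA belongs to miR-148a-3p, miR-148b-3p and miR-152-3p and to no other mature miRNA of that table. The seeds are the same run of bases shifted by 1 position, since bases 1 to 7 of both miR-130 members equal bases 2 to 8 of the other 3. Counted from 1 at the 5′ end, miR-130b-3p differs from miR-130a-3p by U11A and A13G, and miR-148b-3p differs from miR-148a-3p by C9U and U10C. miR-152-3p differs from miR-148b-3p by C10G and U20G, and it ends 1 base earlier.

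The genes lie on 5 chromosomes. On GRCm38.p6 the mature miR-130a-3p lies at chr2:84741116-84741137 on the minus strand, where no other gene of the RefSeq table spans the hairpin. miR-130b-3p lies at chr16:17124071-17124092 on the minus strand, within the span of 2610318N02Rik. miR-148a-3p lies at chr6:51269829-51269850 on the minus strand, within the span of the predicted gene Gm38821. miR-148b-3p lies at chr15:103285185-103285206 on the plus strand, within Copz1, and miR-152-3p at chr11:96850439-96850459 on the plus strand, within Copz2. Copz1 and Copz2 encode related ζ subunits of the COPI vesicle coat. Whether each hairpin is exonic or intronic was not read here.

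Each member was measured by 2 probes, DNA complementary to its 3′ part, each printed as 15 spots. The longer probe of each member whose partner differs by 2 bases is shown because the differing bases lie inside it.
miR-130a-3p, 19 bases: atgcccttttaacattgca
miR-130b-3p, 18 bases: atgccctttcatcattgc
miR-148a-3p, 20 bases: acaaagttctgtagtgcact
miR-148b-3p, 19 bases: acaaagttctgtgatgcac

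Intensities are the scanner software's processed signals, in arbitrary units, averaged over the spots of a probe and summed over a miRNA's probes. Scaled levels are those intensities divided by each array's 75th percentile over the 301 probes detected on all 8 arrays, on the log2 scale. Detection of a probe on an array required 50% or more of the spots to be flagged well above background by the software. A miRNA entered the test if every array of 1 group or of both detected it, which held for 222 of the 1881. Between 198 and 273 miRNAs were detected per array, no spot was saturated, and the 75th percentile before scaling was 1259 ± 44.6 (SD, n = 4) on the normal and 1053 ± 98.3 (SD, n = 4) on the NcstnΔKC arrays. All 8 arrays lay on 1 slide, with the normal arrays in 1 row and the NcstnΔKC arrays in the other, so the groups cannot be told apart from the slide rows. Replicate numbers 1 to 4 were also slide columns 1 to 4 in both groups.

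The 3 tested members were lower in NcstnΔKC than in normal skin on every array, with no overlap between the groups. miR-130a-3p fell 1.29-fold and miR-152-3p fell 1.5-fold. That direction held under 7 of 8 scalings and turned when the scaling percentile was taken over all probes, most of which were undetected. miR-148a-3p was 1.55-fold lower on average, but its adjusted p of 0.0502 in limma's fit missed the threshold of 0.05. Among all 222 tested miRNAs, 95 passed, which is 42.8%, and 27.9% were lower and 14.9% higher in NcstnΔKC. Groups did not overlap for 36.9% of all tested miRNAs, and for 23.4% with NcstnΔKC lower. The median log2 difference was -0.58 over the 3 tested members and -0.23 over all 222. These are bulk samples, in which fewer cells of a type and less RNA per cell cannot be told apart.

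miR-130a-3p carries the seed shared with miR-130b-3p. Its summed intensity was 1043, 1151, 1069 and 1140 on normal arrays 1 to 4. It was 807, 586, 758 and 725 on NcstnΔKC arrays 1 to 4. Every NcstnΔKC array lay below every normal array, and the NcstnΔKC mean was 65.3% of the normal mean before scaling and 77.8% after it. After scaling, the log2 levels were -0.29, -0.079, -0.20 and -0.21 in normal skin and -0.52, -0.65, -0.49 and -0.56 in NcstnΔKC skin. The spread within each group was small, at -0.19 ± 0.087 (SD, n = 4) against -0.56 ± 0.072 (SD, n = 4). The log2 difference, NcstnΔKC minus normal, was -0.36 with a standard error of 0.12 and a 95% interval from -0.64 to -0.087, and limma gave an adjusted p of 0.0411. The NcstnΔKC level was lower on all 4 arrays, and the difference relative to the median of all tested miRNAs was -0.13, the nearest to 0 of the 3 tested members. The call was lost without any 1 of normal replicates 2, 3 and 4 and of NcstnΔKC replicates 2, 3 and 4, with limma's adjusted p between 0.0767 and 0.103.

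miR-148a-3p carries the seed CAGUGCA. Its summed intensity was 858, 930, 529 and 532 on normal arrays 1 to 4. It was 381, 320, 411 and 372 on NcstnΔKC arrays 1 to 4. The groups did not overlap, but normal arrays 3 and 4 lay nearer to the NcstnΔKC arrays than to normal arrays 1 and 2. The scaled log2 levels repeated that split, with -0.57 and -0.39 on normal arrays 1 and 2, -1.22 and -1.30 on normal arrays 3 and 4, and -1.61, -1.53, -1.37 and -1.52 on the NcstnΔKC arrays. The means were -0.87 ± 0.46 (SD, n = 4) in normal and -1.51 ± 0.10 (SD, n = 4) in NcstnΔKC skin. The log2 difference was -0.64 with a standard error of 0.23 and a 95% interval from -1.15 to -0.12. The interval excludes 0 because it is not adjusted for the 222 tests, whereas the adjusted p was 0.0502. Without normal replicate 3 the difference was -0.76 with limma's adjusted p = 0.0440, and without normal replicate 4 it was -0.78 with limma's adjusted p = 0.0344.

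miR-152-3p shares the seed of miR-148a-3p. Its summed intensity was 826, 936, 596 and 686 on normal arrays 1 to 4. It was 422, 436, 410 and 405 on NcstnΔKC arrays 1 to 4. The groups were separate, and normal arrays 3 and 4 were again the lower ones of their group. The scaled log2 levels were -0.63, -0.38, -1.05 and -0.94 in normal and -1.46, -1.08, -1.37 and -1.40 in NcstnΔKC skin, with NcstnΔKC array 2 just below normal array 3. The means were -0.75 ± 0.30 (SD, n = 4) and -1.33 ± 0.17 (SD, n = 4). The log2 difference was -0.58 with a standard error of 0.18 and a 95% interval from -1.0 to -0.16, lower on all 4 arrays, and limma gave an adjusted p of 0.0340. The call was lost without any 1 of normal replicates 1 and 2 and of NcstnΔKC replicates 1, 3 and 4, with limma's adjusted p between 0.0665 and 0.0899.

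**Figure D1:**
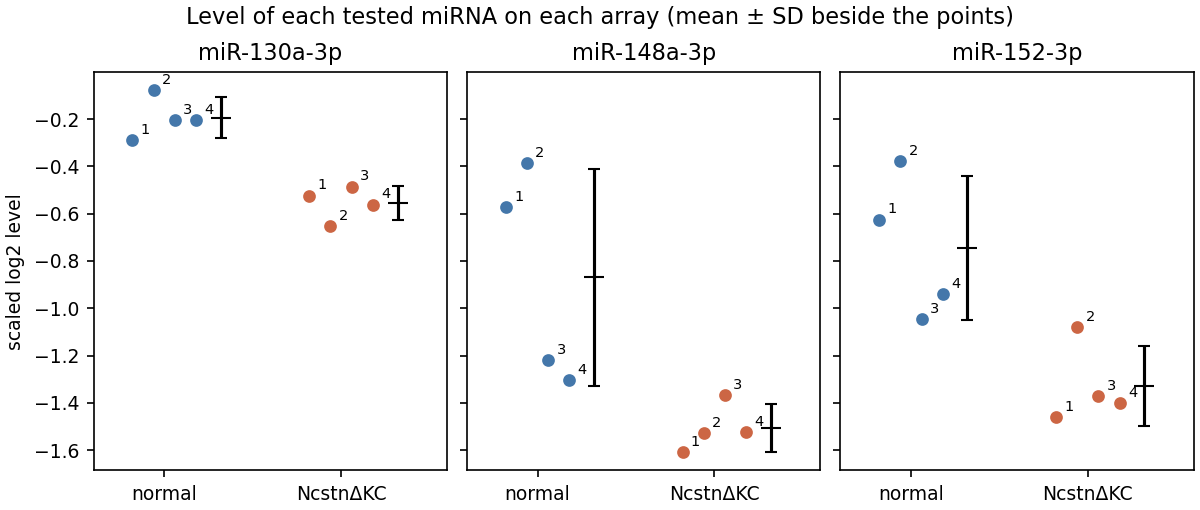
Scaled log2 level of miR-130a-3p, miR-148a-3p and miR-152-3p on each array (vertical axis) in normal and NcstnΔKC skin, with the replicate number beside each point and the mean ± SD of 4 arrays to its right. No NcstnΔKC point reaches the lowest normal point of the same miRNA, and normal arrays 1 and 2 stand above normal arrays 3 and 4 for miR-148a-3p and miR-152-3p but not for miR-130a-3p.

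The size of these differences moved with the scaling, which decides what an unchanged miRNA looks like. Per array, 345 to 488 of the 4415 probes were detected, so a 75th percentile over all probes falls among mostly undetected ones. With the 75th percentile taken over all probes in place of the 301 detected ones, the 3 differences turned positive, at 0.51 for miR-130a-3p, 0.23 for miR-148a-3p and 0.29 for miR-152-3p, and the limma adjusted p-values were 0.714, 0.883 and 0.837. Neither the call of miR-130a-3p nor that of miR-152-3p held with cyclic loess, with the authors' processed values or without the detection filter. The difference of miR-148a-3p shrank to -0.41 with normexp background correction and to -0.39 with array weights. With the percentile over all probes, the median of all 222 tested miRNAs moved with the members, from -0.23 to 0.64. Relative to the median of all tested miRNAs, the log2 difference was -0.13 for miR-130a-3p, -0.40 for miR-148a-3p and -0.35 for miR-152-3p. These relative values are the same by construction under the 4 settings that multiply a whole array by 1 factor or by none. Under the other 4 settings (quantile normalization, cyclic loess, normexp background correction and the authors' processed values) they were -0.23 to -0.14 for miR-130a-3p, -0.54 to -0.34 for miR-148a-3p and -0.48 to -0.31 for miR-152-3p. Of the miRNAs that passed, 34.7% were higher in NcstnΔKC with the scaling used here. That share was 100% when every probe entered the percentile, 52.2% after quantile normalization, 53.9% with cyclic loess, 19.2% with no scaling, 16.5% with spike-in scaling, 56.25% with normexp background correction and 50% with the authors' processed values.

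**Figure D2:**
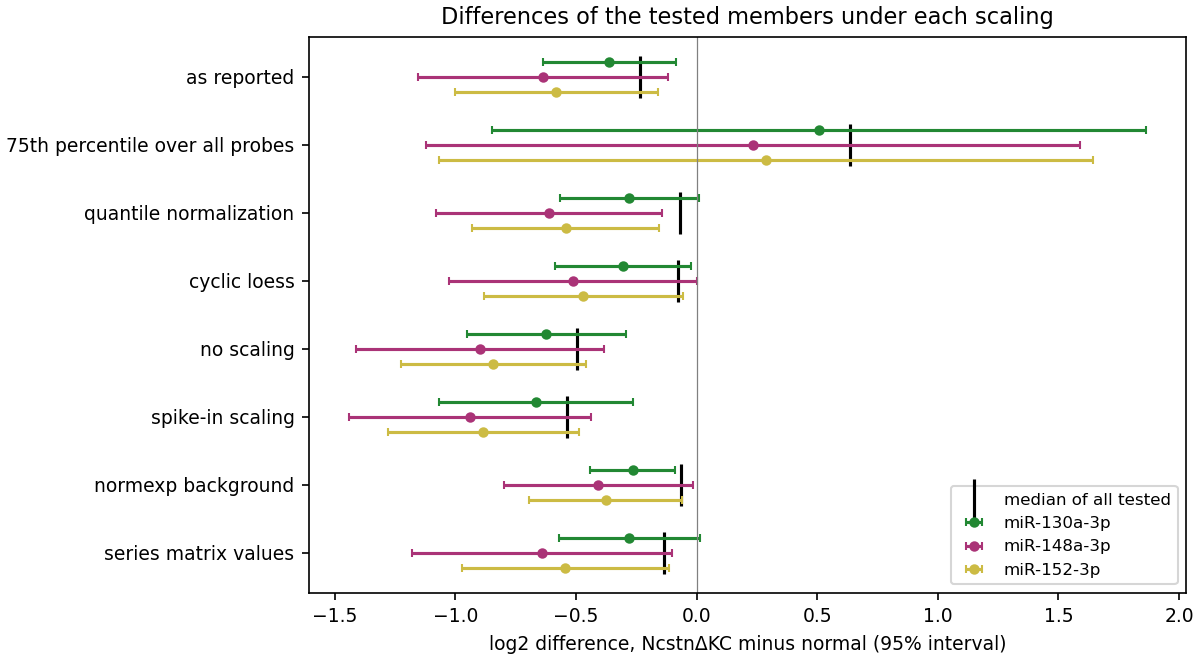
Log2 difference between NcstnΔKC and normal skin (horizontal axis, points with 95% intervals) for each tested member under 8 scalings (vertical axis), with a black bar at the median of all tested miRNAs. The offset of each member from the black bar is the same by construction in the 4 rows that scale whole arrays or not at all, and the 3 members lie left of the bar in these and in the other 4 rows. They lie right of 0 only with the percentile over all probes, where the intervals are widest.

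To compare the sizes of the members' differences, their log2 levels were subtracted from each other within each array, which removes any scaling factor of the array. All 3 pairs were compared by an exact two-sided permutation test over the 70 ways to label the arrays, whose smallest possible p is 0.0286. None of the 3 pairs passed the test, before or after adjustment. miR-130a-3p minus miR-148a-3p was 0.28, 0.31, 1.01 and 1.1 on the normal and 1.08, 0.87, 0.88 and 0.96 on the NcstnΔKC arrays. That difference was higher by 0.27 in NcstnΔKC, with a 95% interval from -0.22 to 0.80 (exact permutation p = 0.4, Benjamini-Hochberg adjusted over the 3 pairs p = 0.6). miR-130a-3p minus miR-152-3p was higher by 0.22, with a 95% interval from -0.415 to 0.635 (exact permutation p = 0.2, adjusted p = 0.6).

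The members with a shared seed were the nearest pair. miR-148a-3p minus miR-152-3p was 0.054, -0.0085, -0.17 and -0.36 on the normal arrays. On the NcstnΔKC arrays it was -0.15, -0.45, 0.0045 and -0.12, so the groups overlapped almost fully. The change between groups was -0.055, with a 95% interval from -0.50 to 0.365 (exact permutation p = 0.686, adjusted p = 0.686). The intervals of all 3 pairs are wide, and they do not show that the members changed by equal amounts.

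**Figure D3:**
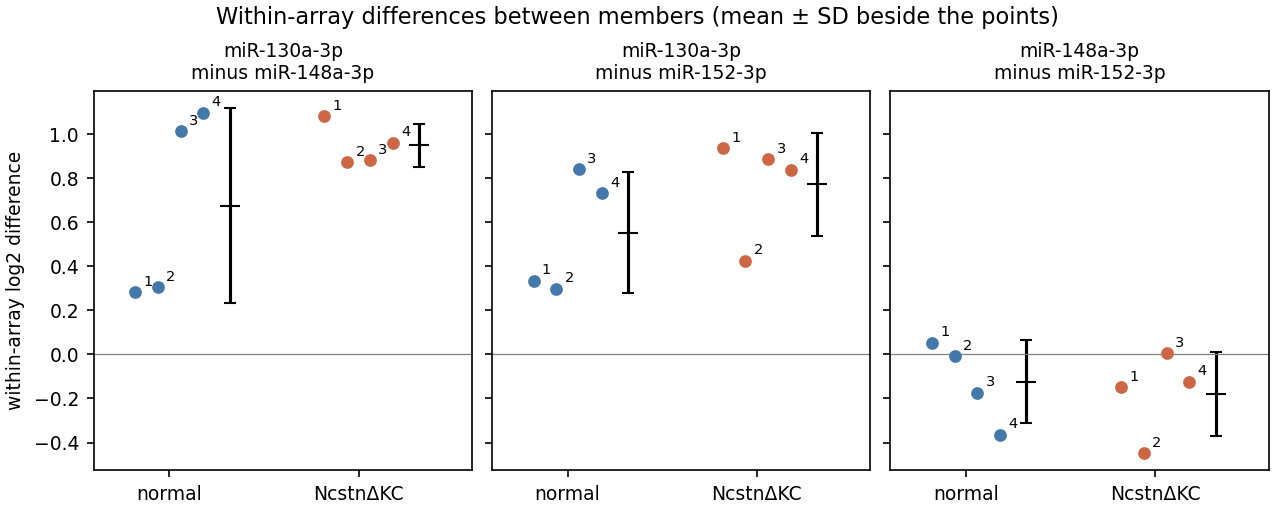
Within-array log2 difference between 2 members (vertical axis) in normal and NcstnΔKC skin, with replicate numbers and the mean ± SD of 4 arrays. Both differences that involve miR-130a-3p are low on normal arrays 1 and 2 and high on normal arrays 3 and 4, and the difference between miR-148a-3p and miR-152-3p overlaps between the groups.

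The profile of each member over the 8 arrays was set against that of every other tested miRNA by the root mean square difference of log2 levels, each centred on its own mean. miR-148a-3p and miR-152-3p differed by 0.166, less than either differed from any other tested miRNA. For miR-148a-3p the nearest non-members were miR-3072-5p at 0.216, miR-1895 at 0.222 and miR-6973b-5p at 0.225, beside a median of 0.583 over all tested miRNAs. For miR-152-3p they were miR-3072-5p at 0.180, miR-34a-5p at 0.234 and miR-125b-5p at 0.236, beside a median of 0.528. miR-130a-3p had a flatter profile, which differed by 0.309 from miR-148a-3p and by 0.247 from miR-152-3p. Its nearest non-members were miR-30e-5p at 0.140, miR-1906 at 0.145 and miR-7050-5p at 0.149, beside a median of 0.466. These values describe 8 arrays that share a slide and a scaling, and carry no test.

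miR-130b-3p, which has the seed of miR-130a-3p, was not well above background in normal skin. Its 18-base probe read -3.68, 5.01, 1.48 and 4.71 on normal arrays 1 to 4. The same probe read 20.7, 11.3, 41.3 and 53.9 on NcstnΔKC arrays 1 to 4. Every NcstnΔKC array lay above every normal array on this probe, the opposite direction to the brighter miR-130a-3p. Among the 222 tested miRNAs, 13.5% had scaled levels that did not overlap and were higher in NcstnΔKC. No such share was taken over dim probes, so how unusual this separation is was not tested. Only NcstnΔKC array 4 passed the detection rule. The 17-base probe was between -9.60 and 0.0038 in normal skin and read 5.45, -2.25, 10.9 and 22.5 in NcstnΔKC skin, so the groups overlapped there. No fold is given because, on the log2 scale before any floor, the NcstnΔKC mean was -5.07. That lay below -4.91, the mean level of the lowest signals that counted as detected on the normal arrays. In a fit of all miRNAs without the detection filter, with dim values raised to a floor, the log2 difference was 0.45 and limma's adjusted p was 0.374. All normal arrays and NcstnΔKC arrays 1 and 2 sat at that floor of -4.97, so this difference depends on where the floor was set.

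miR-148b-3p, which has the seed of miR-148a-3p, was dim in both groups and was not seen to move with its brighter relative. Its 19-base probe read 38.4, 37.7, 43.1 and 51.8 on normal arrays 1 to 4. It read 41.0, 37.1, 42.7 and 49.3 on NcstnΔKC arrays 1 to 4. The groups overlapped over nearly their whole range. Over the same arrays the mean intensity of miR-148a-3p in NcstnΔKC skin was 52.1% of its normal mean before scaling and 62.1% after it. The NcstnΔKC mean of miR-148b-3p was 98.4% of its normal mean before scaling and 118% after it. The 18-base probe stayed between 1.33 and 5.80 on all 8 arrays. The miRNA was detected only on array 4 of each group, and both of those arrays lay in slide column 4. Without the detection filter the log2 difference was 0.24, with limma's adjusted p = 0.374.

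**Figure D4:**
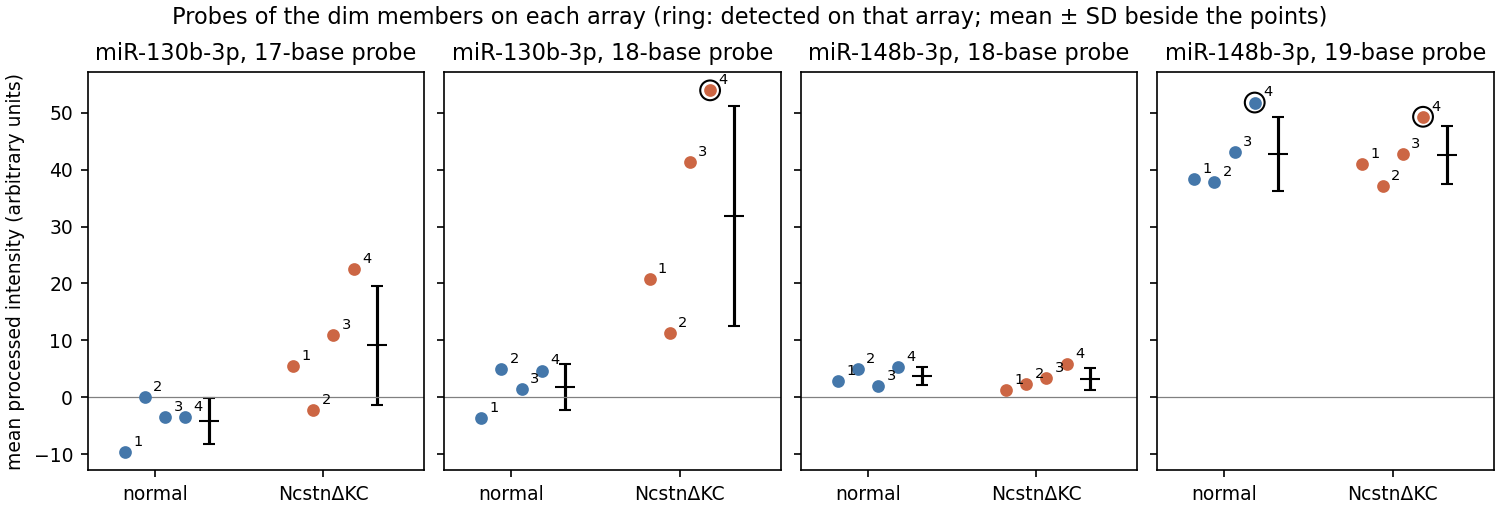
Mean processed intensity in arbitrary units (vertical axis) of the 4 probes of miR-130b-3p and miR-148b-3p on each array, with rings where a probe was detected and the mean ± SD of 4 arrays beside the points. The 18-base probe of miR-130b-3p is higher on all NcstnΔKC arrays than on any normal array, and the 19-base probe of miR-148b-3p covers the same range in both groups.

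The scanner software also reports a total per miRNA, and for these dim members that total was mostly the signal of the brighter relative. They were not alone in this. On each array, the totals of 23.7% to 28.3% of the miRNAs marked as detected exceeded their own probes by a set margin. For 60 to 69 of these per array, the total less 1 own probe matched another miRNA's total to within 0.01 units. On all 8 arrays the software marked miR-148b-3p as detected, and its total equalled the total of its own brightest probe plus the whole total of miR-148a-3p, to within 0.0009 units. On normal array 1 the total of 190.03 was 8.13 from its own probe plus 181.89, the total of miR-148a-3p. Its own probe supplied 3.90% to 11.7% of the total. miR-130b-3p was marked as detected on NcstnΔKC arrays 3 and 4, and there its total of 169.44 and 165.16 was the total of miR-130a-3p plus 8.76 and 11.4 from its own probe. The lower miR-148a-3p signal therefore also lowers the totals of miR-148b-3p, which were 190.03, 205.23, 121.33 and 123.89 on the normal arrays and 89.40, 75.71, 96.26 and 89.38 on the NcstnΔKC arrays, although the probes of miR-148b-3p overlapped between the groups. For that reason levels here were built from the probes and not from the totals.

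**Figure D5:**
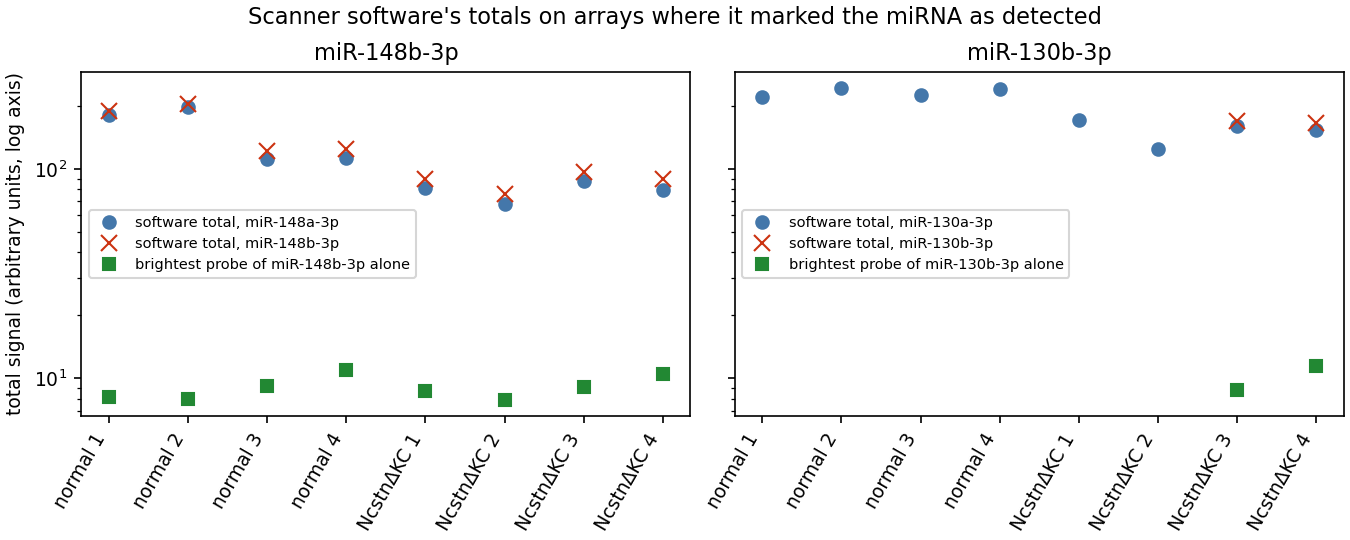
Total signal per array from the scanner software, in arbitrary units on a log axis. The panels pair miR-148b-3p with miR-148a-3p and miR-130b-3p with miR-130a-3p. Circles of miR-148a-3p and miR-130a-3p are shown on all 8 arrays. Crosses and squares are shown only on the arrays where the software marked the dimmer miRNA as detected. The crosses of the dim members lie just above the circles of their relatives, and the squares of their own brightest probe lie between 7.87 and 11.4.

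Another 6 miRNAs on the array carry a seed of the group or belong to it by name: miR-130c, miR-301a-3p, miR-301b-3p, miR-6341, miR-6389 and miR-721. Of these, 4 were detected on no array, and 0 of the 1 tested passed. miR-301a-3p was detected on 3 normal and 2 NcstnΔKC arrays. Its summed intensity was 53.7, 80.6, 79.5 and 77.1 in normal and 64.8, 39.3, 59.7 and 68.8 in NcstnΔKC skin, with overlap. miR-721 was tested, with scaled log2 levels of -0.12, 0.23, -2.52 and -2.61 in normal and -1.51, -0.10, -1.01 and -0.91 in NcstnΔKC skin. It was high on normal arrays 1 and 2 and low on normal arrays 3 and 4, the order also seen for miR-148a-3p and miR-152-3p. That order was not limited to the group, since miR-1895 and miR-6973b-5p, named above, also had it. The log2 difference of miR-721 was 0.37, with a standard error of 0.69 and a limma adjusted p of 0.667. Of the partner arms, the strands from the other side of the hairpins, 7 were on the array and none was detected on any array.

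Markers of cell types that skin can hold were read in the same fit, and some of them passed the test. Over all 222 tested miRNAs, 27.9% were called lower and 14.9% higher, and the median log2 difference was -0.23. In the counts below, a miRNA rose or fell only if it passed the test. Of 7 epithelial miRNAs 4 fell and none rose, and their median log2 difference was -0.58, with a summed scaled level of 22.5 to 27.4 in normal and 22.7 to 30.3 in NcstnΔKC skin. The brightest in that sum, miR-205-5p, was higher by 0.47 in NcstnΔKC but missed the threshold (limma adjusted p = 0.0518). Of 5 tested white blood cell miRNAs 2 rose and none fell, with sums of 1.91 to 2.66 against 2.88 to 8.68. Of 6 fibroblast and smooth muscle miRNAs 3 rose and 1 fell, with sums of 6.70 to 8.89 against 9.89 to 15.1. All 4 striated muscle miRNAs were lower on average in NcstnΔKC, but only 1 passed, with sums of 17.5 to 84.1 against 6.41 to 38.3. Median log2 differences were -1.71 for striated muscle, 1.15 for white blood cell and 0.25 for fibroblast and smooth muscle miRNAs. They were 0.15 for the endothelial and -0.69 for the red blood cell miRNAs. The 1 tested endothelial miRNA did not pass, with sums of 2.38 to 3.08 against 2.75 to 3.35, and of 2 tested red blood cell miRNAs 1 fell, with sums of 0.688 to 1.84 against 1.05 to 2.83, while miR-144-3p of that list was detected nowhere. These counts depended on the scaling. Of the epithelial miRNAs, 1 rose with quantile normalization, 1 with cyclic loess, 1 with normexp and 2 with the authors' values, while 3, 4, 4 and 4 fell. The 1 striated muscle, 1 red blood cell and 1 fibroblast and smooth muscle miRNA that fell did not pass under those 4 settings. Of the striated muscle miRNAs, 3 fell when arrays were left unscaled, and 3 when they were scaled to the spike-ins. With the percentile over all probes no list had a member that fell, and 2 white blood cell and 1 fibroblast and smooth muscle miRNA rose. The part of these cell types in the lower levels of miR-130a-3p, miR-148a-3p and miR-152-3p was not tested.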

How the data were processed

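Total RNA extracted with mirVana was hybridised to 8 one-colour arrays, 4 per group. Spot intensities were deposited as made by the authors' scanner software, Agilent Feature Extraction 10.7.1.1, per the file headers, which name the build mm9. The authors also deposited 1 table of processed log2 values per miRNA. Its columns have medians of 3.24 to 3.25, and its normalization and centring are not given in the sources used here.

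Control and outlier spots (2223 to 2940 per array) were left out, the processed intensities were averaged per probe, scaled to the 75th percentile of 301 probes on that array, summed per miRNA, raised to a floor of 0.0318 and log2-transformed. limma 3.58.1 in R 4.3.3 (lmFit and eBayes, group only, Benjamini-Hochberg adjustment over 222 miRNAs, threshold 0.05) gave the differences, and the script was tested on simulated data. Pairs of members were compared by exact permutation, with intervals found by shifting 1 group in steps of 0.005. Precision is limited by the 4 arrays per group. The named miRNAs are the members, seed relatives, and the 3 tested non-members nearest in profile to each tested member. From the cell type lists, miR-205-5p and miR-144-3p are named. The members and lists were chosen with earlier results of these data known. RefSeq sequences were matched by name for 5 of 5 members.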

Additional observations from a re-analysis of the deposited data

How the results depend on the processing

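Over 27 alternatives the number of members called higher stayed 0, and the log2 differences of the 3 tested members stayed negative under all of them but the percentile over all probes, where they were 0.51, 0.23 and 0.29, with a median of 0.29 and 0 members called. The median over the tested members was -0.84 with no scaling, -0.89 with spike-in scaling and -0.38 with normexp background correction. One member was called lower with quantile normalization, normexp background, software totals and the replicate block, and 0 with cyclic loess, the authors' processed values and no detection filter; the count was 0 to 2 when 1 array was left out. Calls over all tested miRNAs numbered 12 with the percentile over all probes, 52 with software totals, 19 with no filter, 61 with detection on all 8 arrays and 58 to 97 when 1 array was left out, the lowest without NcstnΔKC replicate 3.

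For miR-130a-3p limma's adjusted p was 0.121 with quantile normalization (-0.28), 0.0837 with cyclic loess (-0.30), 0.0505 with software totals (-0.46), 0.121 with the authors' values (-0.28), 0.0521 with no filter (-0.36) and 0.0994 with the replicate block (-0.36), and the differences without 1 array were -0.39 to -0.29. For miR-152-3p it was 0.0763 with cyclic loess (-0.47), 0.0706 with normexp (-0.38), 0.0546 with the authors' values (-0.54) and 0.314 with no filter (-0.58), and without 1 array the differences were -0.69 to -0.46. miR-148a-3p passed with no scaling (-0.90, adjusted p = 0.0117), spike-in scaling (-0.94, 0.00825), the brightest probe alone (-0.64, 0.0483) and totals of its own probes, chosen after seeing the data (-0.69, 0.0473), and without normal replicate 3 or 4. It stayed above the threshold under the others, with differences of -0.39 with array weights (0.0846), -0.41 with normexp (0.104), -0.51 with cyclic loess (0.104), -0.61 with quantile normalization (0.0543) and -0.64 with the replicate block (0.101) and with no filter (0.374), and ranged from -0.78 to -0.48 without 1 array. Over all settings the limma adjusted p spanned 0.00822 to 0.714 for miR-130a-3p, 0.00825 to 0.883 for miR-148a-3p and 0.00465 to 0.837 for miR-152-3p. The change of miR-148a-3p minus miR-152-3p was 0.0037 without normal replicate 1 and 0.034 without NcstnΔKC replicate 2, within a range of -0.14 to 0.034, and 0 pairs passed under 21 alternatives. No filter tests more miRNAs, and leaving out an array tests fewer samples; the cause of the other shifts was not tested.

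Same-numbered arrays, which shared a slide column, correlated at -0.44, 0.20, -0.26 and -0.23 in their deviations from the group means. These correlations over all tested miRNAs showed no steady pairing by number but cannot show that pairing is absent. With the replicate block 71 miRNAs passed.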
